A study of Rattus norvegicus with 8 samples.

Results

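Acot1, Acot2, Ehhadh, Cpt1a, Cyp4a1, Pdk4, Acadvl and Acadm are 8 genes of fatty acid handling that are known targets of the nuclear receptor PPAR-alpha, out of 17683 features that could be tested on the arrays. They were chosen by symbol, to see whether a large rise of Acot1 in livers of furan-treated rats was shared by the other 7. The arrays carried 9 probes for them, and all 9 were well above background on all 8 arrays, so that no member was lost to the filter on dim probes.

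PPAR-alpha is a fatty acid sensor of the liver. It pairs with the retinoid X receptor on a repeated DNA element and, in rodents, strongly induces enzymes that take up, activate, oxidise or hydrolyse fatty acids in mitochondria, peroxisomes and the endoplasmic reticulum. In fasting or after drugs of the fibrate class these genes usually rise together, which makes them a common readout of the receptor in rat liver.

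The tested livers came from 4 male Fisher 344 rats that had received furan, a heterocyclic compound known as a liver toxicant and carcinogen of rodents, by gavage at 8 mg per kg body weight a day, 5 days a week for 90 days. Livers of 4 male Fisher 344 rats served as controls. All 8 animals were 18 weeks old and were killed 24 hours after the last treatment. Whole liver RNA of each animal was read on 1 single-colour (Cy3) array, and the vehicle of the controls is not given in the sources used here.

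A level is the log2 processed signal of a probe minus the log2 75th percentile of its own array, so that 0 is the brightness of that percentile. A change is the mean level of the furan arrays minus that of the control arrays. A gene is said to have risen or fallen where limma's moderated test gave a Benjamini-Hochberg adjusted p below 0.05 over all 17683 features. By that rule 17.3% of all features were higher and 16.9% were lower after furan, 34.2% in either direction. Over all features the change had a median of -0.03. The 75th percentile itself lay between 1256 and 1596 intensity units on the furan arrays and between 827 and 1057 on the control arrays. Slide 1 carried furan and control arrays 1 and 2, and slide 2 carried furan and control arrays 3 and 4. Replicate spots of a probe varied most on furan 1 (median coefficient of variation 12.8%) and control 2 (9.38%), both out of the range set by the scanner software. The hepatocyte markers fitted the label: albumin (Alb), for example, had levels between 7.31 and 7.86 on the furan arrays and between 7.63 and 8.20 on the control arrays.

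The thioesterase genes Acot1 and Acot2 lie side by side in a cluster of near relatives, so the probe decides which transcript is read. The first 30 of the 60 bases of the probes that carry the results on this family are shown for that reason, 5′ to 3′ as in the array annotation.
Acot1 probe: cagttgggtggtaagagtcatggggtgtcc
Acot2 probe 1: taaaaatagtgcctatccaaaaatagagtt
Acot2 probe 2: aaagtcaaaatgaccaaagatggtctcttg
Acot3 probe: caccaaacgaatcaagaggatcaaagatgg
Acot4 brighter probe: atgtgcttgccacagattcagctatatgag
Acot5 probe: gtactgacccatcctaagaatagctgtacc
Over their full 60 bases, the longest run that any of the other probes for the members or for named genes of the cluster shared with the Acot1 probe was 8 bases. That compares probes with each other, and they lie at different positions of their transcripts. Whether a probe also binds the transcripts of relatives could not be checked, so the run does not show that the signals are specific. The Acot1 probe lies at chr6:108049691-108049750 and probes 1 and 2 of Acot2 at chr6:108024282-108024341 and chr6:108023141-108023200, all on the plus strand of the rn4 build.

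Acot1 encodes a cytosolic enzyme that releases free fatty acids from acyl-CoA. Its levels were 0.57, 2.11, 0.98 and 1.40 on furan arrays 1 to 4, and -2.89, -2.81, -3.31 and -3.52 on control arrays 1 to 4. Every furan array lay far above every control array. The means were 1.27 ± 0.66 in furan livers and -3.13 ± 0.34 in control livers (SD, n = 4 each), a change of 4.40 on the log2 scale or 21.1-fold. Since this rise set the question, it is given without a test. It was 4.19 on slide 1 and 4.61 on slide 2, and it ranked 15th among the changes of 13977 named genes, counted from the largest rise.

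Acot2 encodes the mitochondrial relative of Acot1. Its brighter probe had levels of 1.39, 2.89, 2.61 and 3.18 on furan arrays 1 to 4, and 1.76, 0.97, 1.52 and 1.05 on control arrays 1 to 4. Furan 1 fell inside the control range while the other 3 furan arrays lay above it. The change was 1.19 ± 0.38 (SE; limma, adjusted p = 0.0407), or 2.28-fold, with a 95% interval from 0.33 to 2.06. The dimmer probe had -1.83, -1.56, -1.44 and -1.25 on the furan arrays against -2.56, -2.70, -2.82 and -3.08 on the control arrays, with no overlap. In a fit of single probes its change was 1.27 ± 0.16 (SE; limma, adjusted p = 0.00136), so both probes gave a rise of like size. The call of the gene, taken from the brighter probe, was lost when any 1 of furan 2, 3 or 4 or control 2, 3 or 4 was left out (adjusted p between 0.0686 and 0.108), without the filter on dim probes (adjusted p = 0.0792) and on slide 1 alone, where the change was 0.77 (adjusted p = 0.436). Of the 22 alternatives described below, 13 kept the Acot2 call and 9 lost it. With the mean of its probes the change was 1.23 (limma, adjusted p = 0.00792), and without furan 1 it was 1.57 (adjusted p = 0.00449). The rise of Acot2 ranked 761st of the 13977 named genes.

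**Figure D1:**
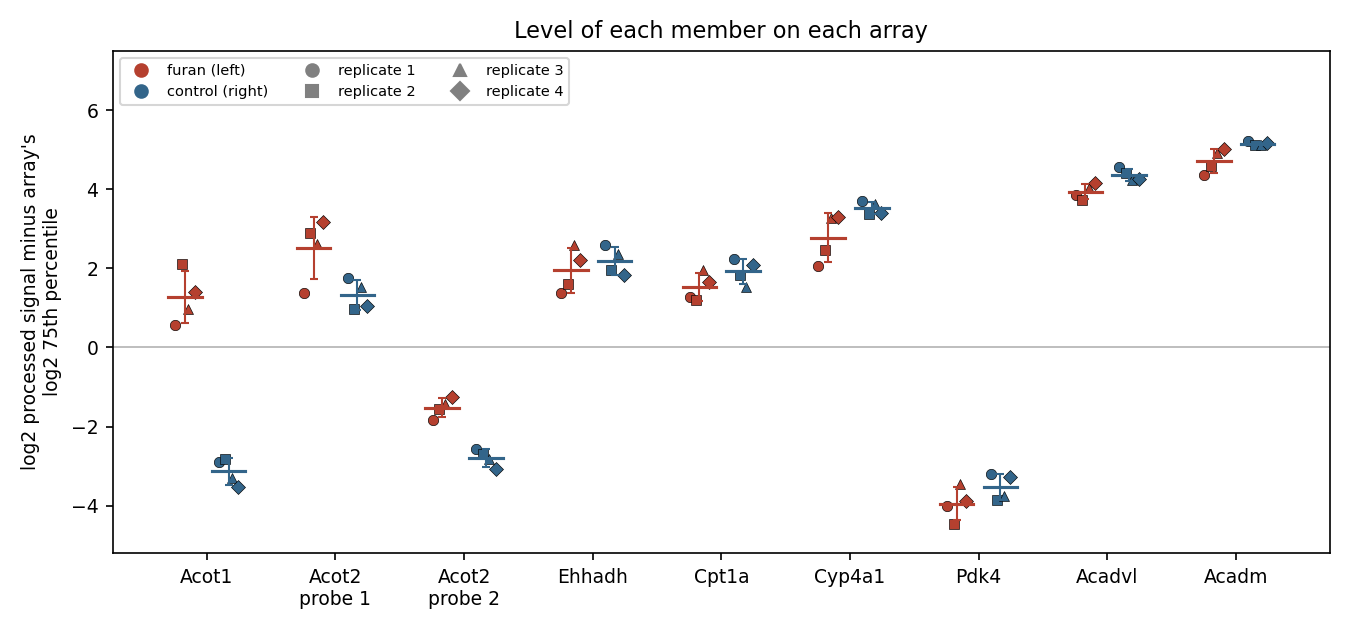
Level of each member on each array (log2 processed signal minus the array's log2 75th percentile), furan left of control within each gene. Symbols are single arrays, horizontal lines group means and bars 1 SD (n = 4 each). Furan arrays lie above control arrays for Acot1 and for probe 2 of Acot2 (-1.83 to -1.25 against -3.08 to -2.56), and below them for Cyp4a1, Acadvl and Acadm.

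None of the other 6 members was called higher. Of the 7 members apart from Acot1, 1 was higher (Acot2), 1 was lower (Acadvl) and 5 were not called, beside 17.3% higher and 16.9% lower among all features. Their median change was -0.42, with 6 of the 7 below 0, against -0.03 over all features. Furan values lay wholly below control values for 3 of the 7 and wholly above for 0 of the 7, while 18.0% of all features lay wholly below, 18.8% wholly above and 36.7% either way. Outside Acot2, the highest upper bound of a 95% interval was 0.43, that of Ehhadh, which leaves out a change of the size seen for Acot1 or for the mean of Acot2. In whole liver RNA, fewer cells of a type and less RNA per cell cannot be told apart.

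Cyp4a1 encodes the microsomal enzyme that starts omega-oxidation of fatty acids and is among the classic PPAR-alpha targets of rat liver. Its levels were 2.05, 2.47, 3.28 and 3.30 on furan arrays 1 to 4, and 3.70, 3.37, 3.61 and 3.41 on control arrays 1 to 4. All 4 furan arrays lay below the control arrays, furan 1 and 2 by far the most. The change was -0.75 ± 0.28 (SE; limma, adjusted p = 0.0717), with a 95% interval from -1.39 to -0.10, and was not called. It was called lower with normexp background correction (adjusted p = 0.0487), with quantile normalization (0.0433), with the slide as a block (0.0447) and without furan 3 (0.0456) or furan 4 (0.0413).

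Ehhadh, the bifunctional enzyme of peroxisomal beta-oxidation, had levels of 1.37, 1.61, 2.60 and 2.21 on the furan arrays, and 2.60, 1.95, 2.37 and 1.83 on the control arrays. Furan 1 and 2 lay below the control range and furan 3 and 4 within or just above it. The change was -0.24 ± 0.29 (SE; limma, adjusted p = 0.564), with a 95% interval from -0.91 to 0.43. By slide it was -0.78 on slide 1 and 0.31 on slide 2, opposite in sign.

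Cpt1a, which attaches long-chain acyl groups to carnitine for entry into mitochondria, had levels of 1.27, 1.21, 1.95 and 1.65 on the furan arrays, and 2.24, 1.83, 1.53 and 2.10 on the control arrays. The groups overlapped, and furan 1 and 2 were again the lowest of the 8. The change was -0.40 ± 0.21 (SE; limma, adjusted p = 0.179), with a 95% interval from -0.89 to 0.09. It was -0.79 on slide 1 and -0.01 on slide 2.

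Acadvl and Acadm are the mitochondrial acyl-CoA dehydrogenases of very long and medium chains, which take the first step of beta-oxidation. Acadvl had levels of 3.85, 3.73, 4.04 and 4.15 on the furan arrays, and 4.57, 4.40, 4.23 and 4.27 on the control arrays. All furan values were below all control values, and the change of -0.43 ± 0.13 (SE; limma, adjusted p = 0.0368) was called, a 1.34-fold lower level. Acadm had levels of 4.36, 4.58, 4.91 and 5.02 on the furan arrays, and 5.21, 5.11, 5.12 and 5.16 on the control arrays. Here too the groups did not overlap, yet the change of -0.43 ± 0.15 (SE; limma, adjusted p = 0.0594) missed the threshold. The Acadvl call was lost without furan 1, 2 or 3 or without any 1 of the 4 control arrays (adjusted p between 0.0528 and 0.0951) and without the filter on dim probes (0.0800), and Acadm was called lower with normexp (0.0361), with a variance trend (0.0424), with the slide as a block (0.0459) and without furan 4 (0.0278).

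Pdk4 encodes a kinase that shuts off the pyruvate dehydrogenase complex when fat is burned. Its levels were -4.00, -4.46, -3.45 and -3.88 on the furan arrays, and -3.21, -3.86, -3.76 and -3.27 on the control arrays. The groups overlapped, with furan 2 the lowest of the 8 arrays. The change was -0.42 ± 0.24 (SE; limma, adjusted p = 0.201), with a 95% interval from -0.97 to 0.12.

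For all 9 member probes the change was smaller or more negative on slide 1 than on slide 2, as it was for 125 of the 148 tested genes of the pathway lists described below (84.5%) and for 56.8% of all features. The interaction of furan with the slide was not called for any of the 8 members (limma, adjusted p between 0.776 and 0.923), nor for any of the 17683 features. At an unadjusted p below 0.05, 4 of the 8 members (Cyp4a1, Acadvl, Ehhadh and Acadm, with p between 0.00971 and 0.0467), 40 of the 148 list genes and 1113 of all features (6.29%) differed between slides. The summed level of 11 hepatocyte markers on a linear scale moved the same way. It was 1494, 1442, 1670 and 1830 on furan arrays 1 to 4 and between 2328 and 2703 on the control arrays. Of the 11 markers, 8 were called lower and 0 higher, beside 16.9% and 17.3% of all features. Their median change was -0.61, against -0.03 over all features. Of 9 tested biliary markers, 2 rose, beside 17.3% of all features, and 7 were not called. Those that rose were Epcam and Sox9, by 1.79 and 0.48. The summed level of the 9 tested biliary markers was 1.27 to 9.0 on the furan arrays and 0.64 to 5.38 on the control arrays. The part of either marker list in the levels of the members and of their pathways was not tested.

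**Figure D2:**
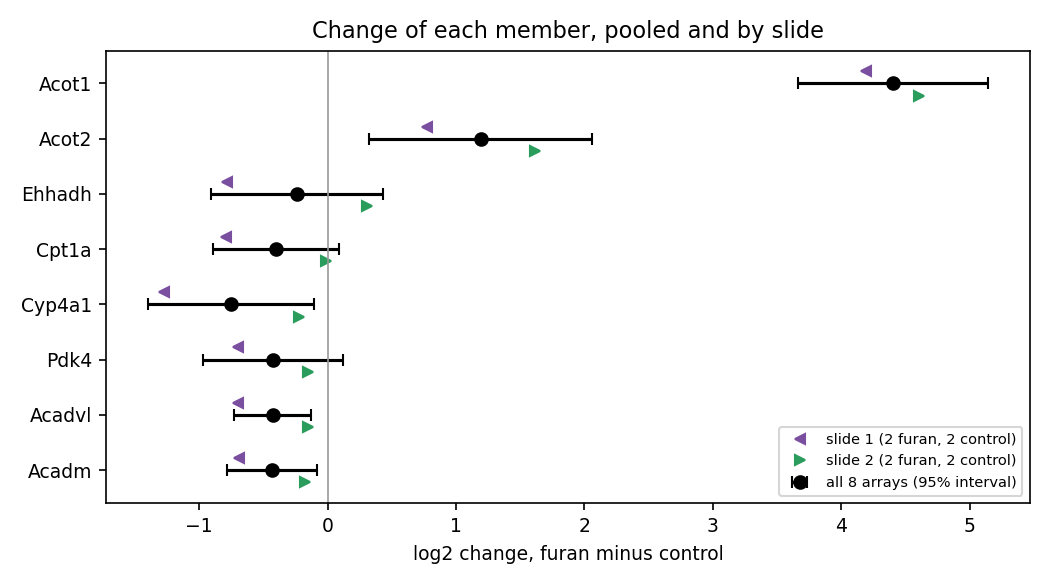
Change of each member (log2, furan minus control) over all 8 arrays with its 95% interval from limma (circles), on slide 1 alone and on slide 2 alone (triangles, 2 furan and 2 control arrays each). Acot1 (4.40) and Acot2 (1.19) lie right of 0, the other 6 members between -0.75 and -0.24, and every slide 1 value lies left of its slide 2 value.

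Other genes of the cluster that holds Acot1 and Acot2 were also higher after furan, by less than Acot1, and their calls were borderline. On rn4 the cluster on chromosome 6 runs Acot2, Acot1, Acot4, Acot3, Acot5 and Acot6, all on the plus strand, with 132 kb from the first to the last probe. Of the 4 cluster genes beside the members, 3 rose and Acot6 was well above background on 1 control array only and was not tested. In mouse, Acot3, Acot4 and Acot5 are peroxisomal acyl-CoA thioesterases.

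Acot4 had levels of 2.85, 3.52, 3.64 and 4.06 on the furan arrays against 3.11, 2.70, 2.72 and 2.26 on the control arrays, a change of 0.82 ± 0.27 (SE; limma, adjusted p = 0.0469), and 0.76 on its other probe. Furan 1 again lay within the control range. Acot5 had 2.66, 2.94, 3.00 and 3.65 on the furan arrays against 2.49, 2.27, 2.55 and 1.67 on the control arrays, without overlap, a change of 0.82 ± 0.26 (SE; limma, adjusted p = 0.0393). Acot3, named here after its values were seen, had -0.78, -0.65, -0.41 and -0.21 on the furan arrays against -0.87, -1.001, -1.27 and -1.67 on the control arrays, a change of 0.69 ± 0.20 (SE; limma, adjusted p = 0.0297). Both the Acot4 and the Acot5 call were lost on leaving out any 1 of 6 arrays: furan 2, 3 or 4 and control 2, 3 or 4 for Acot4 (adjusted p between 0.0855 and 0.111), and furan 2, 3 or 4 and control 1, 2 or 4 for Acot5 (between 0.0506 and 0.0833). With the slide as a block neither was called (adjusted p = 0.0597 for Acot4 and 0.0505 for Acot5).

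Inside the cluster, 2 probes with no gene symbol were higher by 0.84 and 0.79 (limma fit of single probes, adjusted p = 0.00483 and 0.0139), and another had a change of 0.48 (adjusted p = 0.119). Genes within 250 kb on either side of the cluster, a distance chosen after the data were seen, gave no common direction. Riox1 had a change of -0.43 and was lower in the fit of single probes (limma, adjusted p = 0.0228). The dynein light chain gene Dnal1 was higher by 1.05 in that fit (adjusted p = 0.0141). But Dnal1 was dim, well above background on 3 of 4 control arrays, and passed the filter through the furan arrays alone. Numb, Papln, Pnma1, Mideas and Ptgr2 were not called. Outside the cluster, Acot9 on chromosome X, a mitochondrial thioesterase, rose by 1.58 ± 0.18 (SE; limma, adjusted p = 0.000903), with means of 0.71 ± 0.28 in furan livers and -0.86 ± 0.26 in control livers (SD, n = 4 each). Over the other Acot thioesterases, 4 of 8 tested genes rose (50%, against 17.3% of all features), 0 fell, and the median change was 0.54.

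**Figure D3:**
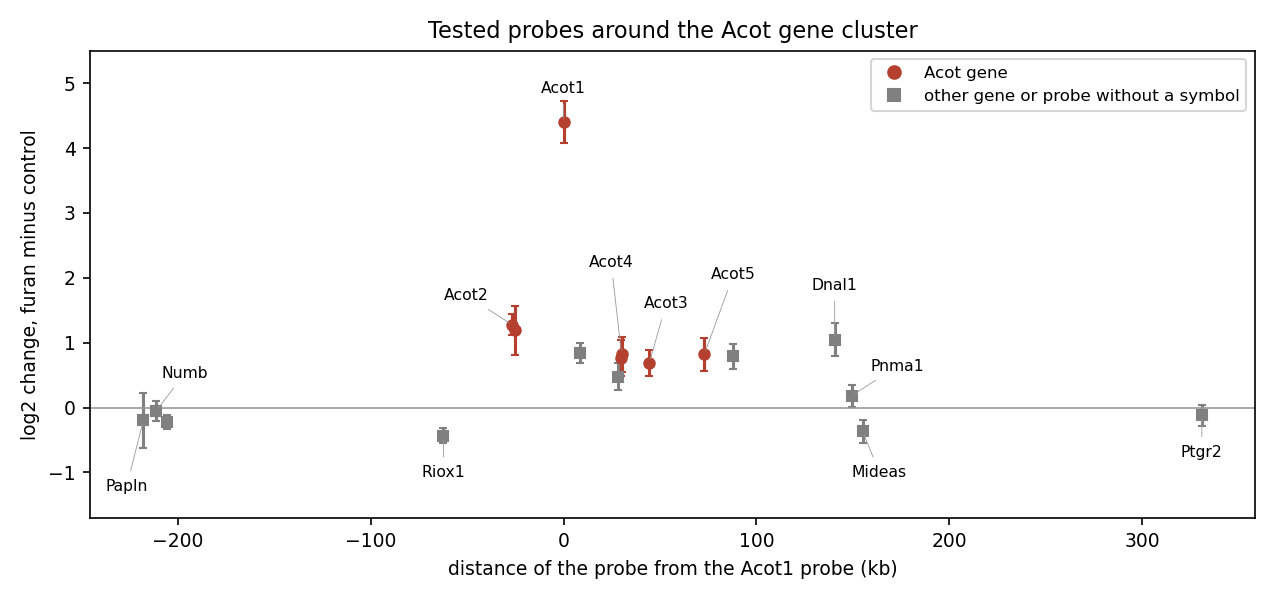
Change of each tested probe (log2, furan minus control, bars 1 SE from limma) against its distance in kb from the Acot1 probe, for Acot genes (circles) and other genes or probes without a symbol (squares). Acot1 stands at 4.40, the other Acot probes between 0.69 and 1.27, and the flanking gene Riox1 at -0.43. Probes more than 250 kb before the Acot1 probe are not drawn.

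The Cyp4a relatives of Cyp4a1, also omega-hydroxylases, lay lower after furan rather than higher. Cyp4a2 had levels of 5.38, 6.05, 6.79 and 7.01 on the furan arrays against 7.89, 7.47, 7.45 and 7.21 on the control arrays, a change of -1.20 ± 0.35 (SE; limma, adjusted p = 0.0289). Cyp4a8 changed by -0.62 ± 0.18 (SE; adjusted p = 0.0318) on its brighter probe and by -1.69 on its dimmer one. Cyp4a3 had a change of -0.86 that was not called (adjusted p = 0.0827). On rn4 the Cyp4a2 probe (chr5:135547423-135547482) lies between the Cyp4a8 probes (chr5:135546881-135546940 and chr5:135547750-135547809) on the same strand, so signal of these close relatives may not be cleanly separated. The Cyp4a2 call was lost with quantile normalization, which moved its change to -0.77 (adjusted p = 0.0663), and without furan 2 or control 1, 2 or 3 (adjusted p between 0.0554 and 0.0799) and the Cyp4a8 call without furan 2 or control 1, 3 or 4 (between 0.0697 and 0.0766).

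Beyond the members, 157 further genes of PPAR-alpha action and fatty acid oxidation were drawn up in 9 lists, of which 148 could be tested. Of these, 18 rose (12.2%, against 17.3% of all features), 35 fell (23.6%, against 16.9%) and 95 were not called, with a median change of -0.16. That median was -0.37 on slide 1 and 0.02 on slide 2.

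In mitochondrial beta-oxidation, 0 of 18 genes rose (against 17.3% of all features) and 8 fell (44.4%, against 16.9%), with a median change of -0.43. Acad10, a member of the acyl-CoA dehydrogenase family, fell by 1.00 on the log2 scale, to a mean of 3.18 ± 0.39 in furan livers against 4.19 ± 0.05 in control livers (SD, n = 4 each; limma, adjusted p = 0.00504). Etfdh, which passes electrons of beta-oxidation to the respiratory chain, fell by 0.93 (adjusted p = 0.00635), and Acadsb, the short/branched chain dehydrogenase, fell by 0.90 (adjusted p = 0.0272). Hadha, a subunit of the trifunctional protein, had a change of -0.18 (adjusted p = 0.270), and of -0.41 on its other probe. Acadl, the long-chain dehydrogenase, had a change of -0.34 (adjusted p = 0.0806). The Acadsb call was lost without furan 2, control 1 or control 3 (adjusted p between 0.0658 and 0.0761), and Acadl was called lower without furan 4 (a change of -0.43).

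In peroxisomal beta-oxidation and among peroxisome genes, 1 of 21 rose and 6 fell, with a median change of -0.50. These are 4.76% and 28.6%, against 17.3% and 16.9% of all features. Abcd2, a transporter of very long-chain acyl-CoA in the peroxisomal membrane, was the 1 that rose, by 2.96 ± 0.27 (SE; limma, adjusted p = 0.000456), with means of -2.52 ± 0.44 in furan livers and -5.48 ± 0.44 in control livers (SD, n = 4 each). With normexp the rise of Abcd2 was 1.34. Amacr, a racemase for branched-chain acids, fell by 0.96, Acox3, a branched-chain acyl-CoA oxidase, by 0.93, and catalase (Cat) by 0.81 (limma, adjusted p = 0.0127, 0.00386 and 0.00841). Pex11a, a peroxisome division gene, had a change of -0.38 (adjusted p = 0.307).

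Among genes of fatty acid activation and the carnitine shuttle, 2 of 17 rose and 5 fell, with a median change of -0.21. By share, 11.8% rose and 29.4% fell, against 17.3% and 16.9% of all features. Cpt1b, the muscle form of the carnitine transferase, rose by 1.72 ± 0.34 (SE; limma, adjusted p = 0.00668), with levels averaging -0.23 ± 0.63 in furan livers and -1.95 ± 0.47 in control livers (SD, n = 4 each). The summed level of 5 tested striated muscle markers was 1.39 to 1.76 on the furan arrays and 1.60 to 1.83 on the control arrays, 1 marker rose and 2 fell, and Myh1, Myh2, Myh7 and Tnnt3 were too dim to test. Acsl3, an acyl-CoA synthetase, rose by 0.54 (adjusted p = 0.0396). Slc27a5, the bile acid and fatty acid CoA ligase of hepatocytes, fell by 1.68, to 6.37 ± 0.45 in furan livers against 8.06 ± 0.19 in control livers (adjusted p = 0.00153). Crot, the peroxisomal carnitine octanoyltransferase, fell by 1.36 (adjusted p = 0.00948) and Slc27a2, a very long-chain acyl-CoA synthetase, by 0.72 (adjusted p = 0.0158), whereas Cpt2, the inner partner of Cpt1a, had a change of 0.15 (adjusted p = 0.599). The Acsl3 call was lost without furan 1, 2 or 4 or control 1, 2 or 4 (adjusted p between 0.0561 and 0.0984), and that of Slc27a2 with quantile normalization, which moved its change to -0.23 (adjusted p = 0.105).

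In omega-oxidation, 2 of 12 rose (16.7%, against 17.3% of all features) and 3 fell (25%, against 16.9%), with a median change of -0.24. Cyp4f5, a P450 of the Cyp4 family, rose by 2.73 ± 0.20 (SE; limma, adjusted p = 0.000220), with means of -0.23 ± 0.35 in furan livers and -2.96 ± 0.25 in control livers (SD, n = 4 each). Adh4, an alcohol dehydrogenase, rose by 2.20 ± 0.18 (SE; adjusted p = 0.000293) and by 1.98 on its other probe. Cyp4f4, another P450 of the family, fell by 1.28 ± 0.21 (SE; adjusted p = 0.00327), and the other falls were those of Cyp4a2 and Cyp4a8.

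Among the genes of ketone body synthesis and use, 1 of 8 rose (12.5%, against 17.3% of all features) and 0 fell (against 16.9%). Slc16a6, of the monocarboxylate transporter family, rose by 2.64 ± 0.22 (SE; adjusted p = 0.000329), with means of -1.99 ± 0.32 in furan livers and -4.62 ± 0.37 in control livers (SD, n = 4 each). With normexp its rise was 1.61.

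Around Pdk4, 2 of 10 genes of the pyruvate dehydrogenase complex and its regulators rose and 1 fell. These are 20% and 10%, against 17.3% and 16.9% of all features. Dlat and Dld, the catalytic subunits that follow the dehydrogenase itself, rose by 0.48 and 0.35 (limma, adjusted p = 0.0124 and 0.0424). Pdk1, another of the inhibiting kinases, fell by 0.61 (adjusted p = 0.0142). The Dld call was lost without any 1 array other than furan 1 (adjusted p between 0.0617 and 0.103).

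Of 29 other PPAR-alpha targets, 4 rose and 6 fell, and the median change of -0.03 was that of all features. By share, 13.8% rose and 20.7% fell, against 17.3% and 16.9% of all features. Fabp2, the intestinal fatty acid binding protein, rose by 2.50 ± 0.21 (SE; limma, adjusted p = 0.000338), with means of 0.95 ± 0.19 in furan livers and -1.55 ± 0.43 in control livers (SD, n = 4 each). Of the 6 tested enterocyte markers, which include Fabp2, it was the 1 that rose; the lactase gene Lct fell, Cdx2 had a change of 2.97 that was not called (adjusted p = 0.0685), and Vil1 and Si were too dim to test. Their summed level was 11.3 to 14.2 on the furan arrays and 7.81 to 13.1 on the control arrays. Aqp3 and Aqp7 are glycerol channels. Aqp3 was well above background on all 4 furan arrays and on 0 of 4 control arrays. It thus passed the filter through the furan arrays alone, and it is counted among the 4 that rose. Set against the dimmest signal called above background, its level was at least 5.33-fold higher after furan. The call (limma, adjusted p = 0.00143) belongs to the change of 2.85 without that floor and does not test the bound. Both are given for this background method only. With normexp, which here added an offset of 50 intensity units to every signal before scaling, the change of Aqp3 was 6.5e-05 and not called. The part of that offset in the lost rise was not tested. Aqp7 rose by 3.41 ± 0.65 (SE; adjusted p = 0.00561) but by 0.91 with normexp. It was well above background on 3 of 4 control arrays, where its levels ran from -8.17 to -4.96. Aqp7 thus also passed the filter through the furan arrays alone, and it too is counted among the 4 that rose. The summed level of 5 tested adipocyte markers was 3.30 to 5.09 on the furan arrays and 2.91 to 9.69 on the control arrays, none of the 5 was called, and Lep, Plin1 and Adig were too dim to test.

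Several secreted or lipid-handling targets were lower. Apoa5 and Apoc3, apolipoproteins that regulate triglyceride clearance, both fell by 1.13 on the log2 scale (limma, adjusted p = 0.00199 and 0.00421). With quantile normalization the change of Apoc3 was -0.49. Cd36, a fatty acid transporter, fell by 0.72 (adjusted p = 0.0407), and its other probe had a change of -0.43. Fabp1, the liver fatty acid binding protein, fell by 0.54 (adjusted p = 0.0372), but its change was 0.16 with quantile normalization. Fgf21, a fasting hormone, had a change of 0.14, Angptl4, a lipase inhibitor, -0.17, Plin2, a lipid droplet coat protein, 0.03, and Vnn1, a pantetheinase, 0.31, and none of these 4 was called (adjusted p between 0.464 and 0.901). The Cd36 call was lost without any 1 array other than control 2 (adjusted p between 0.0531 and 0.101) and the Fabp1 call without any 1 other than furan 4 (between 0.0596 and 0.0984).

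Among 25 regulators, 2 rose (8%, against 17.3% of all features) and 6 fell (24%, against 16.9%). The receptor gene Ppara itself had a mean of -3.02 ± 0.22 in furan livers and -3.03 ± 0.37 in control livers (SD, n = 4 each), a change of 0.01 with a 95% interval from -0.45 to 0.47. Its partner Rxra fell by 0.63 ± 0.13 (SE; limma, adjusted p = 0.00797). Pparg, the adipocyte receptor of the family, fell by 1.14 ± 0.17 (SE; adjusted p = 0.00217), and Hnf4a, a hepatocyte nuclear receptor, by 0.98 ± 0.20 (SE; adjusted p = 0.00740). The coactivator Ppargc1a had a change of -0.17 (adjusted p = 0.737). Prkaa1, a catalytic subunit of the AMP-activated kinase, rose by 1.52 (limma, adjusted p = 0.00261), whereas Prkaa2, the other catalytic subunit, named here after its values were seen, fell by 0.49 (adjusted p = 0.0383). Lpin2, a phosphatidate phosphatase, rose by 0.91 (adjusted p = 0.00905). With normexp the rise of Prkaa1 was 0.65 and that of Lpin2 0.46.

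**Figure D4:**
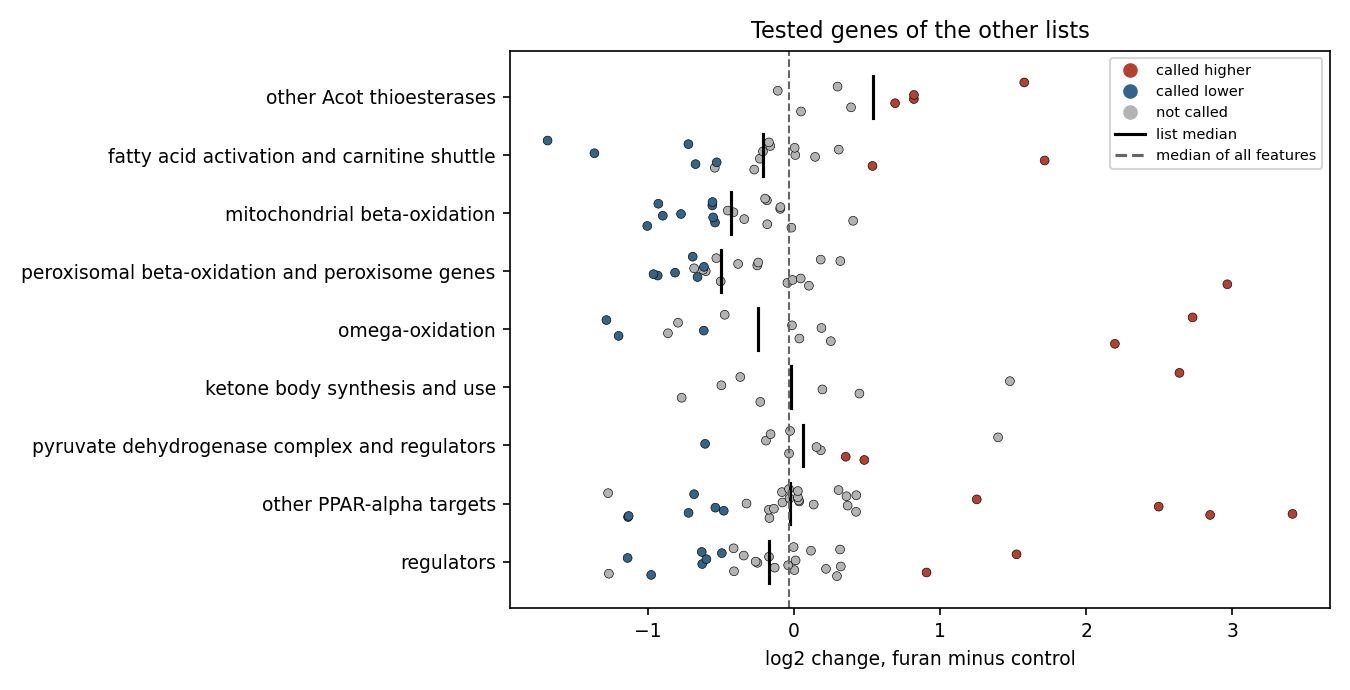
Change of each tested gene of the 9 other lists (log2, furan minus control), coloured by its call, with the median of each list (black line) and of all features (dashed line, -0.03). Medians lie at -0.43 for mitochondrial beta-oxidation and -0.50 for the peroxisomal list, and at 0.54 for the other Acot thioesterases.

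Genes with the pattern closest to Acot1 were not fatty acid oxidation genes of these lists. Likeness was the root mean square difference over the 8 arrays between profiles taken relative to their own control means, ranked over 13976 named genes. The closest was Cyp2c12, a P450 known as female-specific in rat liver, at 0.55 log2 units, with levels of 1.84, 1.91, 1.80 and 2.00 on the furan arrays against -2.08, -2.63, -2.68 and -1.87 on the control arrays. Nme4 followed at 0.60, Npw at 0.61, Ildr1 at 0.62 and Ccdc68 at 0.64. Acot2 stood at rank 667 with a difference of 2.31, and the other 6 members at rank 9197 or beyond. This measure mostly follows the size of the change, by which Acot2 ranked 761st and Ehhadh 9105th. Only genes with a rise near that of Acot1 can come close, so the ranks are no result separate from the changes given above.

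PPAR-alpha and the retinoid X receptor bind a direct repeat of AGGTCA spaced by 1 base. This element, AGGTCA, any base and AGGTCA again, was searched on both strands of RefSeq promoter windows (GRCr8, from 250 bases before to 50 after the gene start), with up to 2 mismatches in its 12 fixed letters. Windows were found for 7 of the 8 members and 138 genes of the lists. It occurred in 1 of the 7 members, in 17 of the 138 (12.3%) and in 3.77% of all 33469 windows. The member was Acadvl, which fell, with 1 mismatch, a closeness met in 0.439% of all windows. The 30 bases just before its gene start, at chr10:55236706-55236735 on the minus strand of GRCr8, are shown with the match in capitals.
Acadvl promoter: gagacgggagaagAGGTCAGTGGTCAaggc
No match within 2 mismatches lay in the windows of Acot1 and Acot2, which says only that these letters are not in that stretch.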

How the data were processed

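Per the file headers and the submitters' processing notes, the authors extracted the arrays with Agilent Feature Extraction 10.7. In the deposited files of the scanner, each spot has a background-subtracted processed signal (intensity), for 62976 spots, 58717 of them not controls. The authors' deposited series table was the same intensity, each array brought to 1000 at its 75th percentile. Spots marked non-uniform or as population outliers were dropped and the rest averaged by probe. The log2 intensity was set against the 75th percentile of non-control spots. A probe was tested where well above background on all 4 arrays of a group (at least 50% of its usable spots), and the brightest of a gene's 20268 tested probes in all stood for it, which gave 17683 features. Furan was compared with control in limma 3.58.1 (R 4.3.3, lmFit and eBayes without trend, two-sided, Benjamini-Hochberg over all features), which was tested on simulated data. Each array is a separate rat, and 4 arrays a group limit the precision. No spot was saturated.

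Genes were named through the transcript accession or symbol with RefSeq tables of GRCr8; probe positions are those of the array annotation on rn4. The members, lists and naming rule were chosen with earlier results of these data known. Named from each list were up to 3 called genes of each direction with the largest change, 18 genes whatever their values, and the 5 genes most like Acot1; the values of some are not reported here. For a fold bound, a control level under the dimmest probe called above background on that array was raised to it. Alternatives covered background correction (normexp with an offset of 50 intensity units), scaling, the filter, marked spots, probes of a gene and the variance model. They also covered slide, replicate block, the deposited table and left-out arrays. The interaction of furan with the slide and the flank around the cluster were chosen after seeing the data. Same-numbered arrays were not paired: the correlations of their deviations from the group means were -0.30, 0.12, 0.28 and 0.04.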

Additional observations from a re-analysis of the deposited data

Results flagged for a closer look

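Of 116 sets of 4 arrays examined, each 1 gene in 1 group, 2 held an array far from the other 3 by Dixon's criterion, while chance marks about 1 in 20. For Slc27a2, control 1 was the highest control array with a level of 7.70, the other 3 lying between 7.34 and 7.37. For Acadl, control 1 was likewise the highest control array, with 6.49 against 6.20 to 6.24 on the other 3.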

How the results depend on the processing

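The direction of all 8 members held over the 22 alternatives except 1: the change of Ehhadh, which was not called, was 0.31 on slide 2 alone. The change of Acot1 stayed between 3.80 (with normexp) and 4.74. Of the 7 members apart from Acot1, 2 were called, against 4 with normexp or with the slide as a block, 1 on slide 2 alone or without control 2 and furan 1 together, and 0 with no filter on dim probes, on slide 1 alone or with a replicate block; leaving out 1 array at a time gave 0 to 3. The replicate block ended the calls of Acot2 (adjusted p = 0.100) and Acadvl (0.0995), and those of Acot4 (0.125) and Acot5 (0.111). Among the 148 tested genes of the other lists, 53 were called in the result reported, 35 with the replicate block, 9 on slide 1 alone, 19 on slide 2 alone and 34 to 57 with 1 array left out, and which genes these counts share was not compared. Among all features, 6041 were called in the result reported, against 4559 with the replicate block, 541 on slide 1 alone, 1458 on slide 2 alone and 4177 to 5966 with 1 array left out. Normexp called 8809 features, 31.8% of them higher against 50.6% in the result reported, and moved the median change of all features to -0.18. Over the 49 other named genes, 935 repeats stayed on the same side of the threshold, 133 lost the call, 7 gained it and 1 reversed a called change: Fabp1, whose change was 0.16 with quantile normalization. The causes were not tested, and a single slide also holds fewer arrays. Normexp also gave smaller rises for Aqp7, Abcd2, Slc16a6, Prkaa1 and Lpin2, and left no rise of Aqp3.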
